A study of Mus musculus with 9 samples.

Results

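Glucose leaves the gut lumen through transporters of the brush border and becomes available to a cell's own metabolism once a hexokinase has phosphorylated it. Described here are 9 genes of these steps, taken by symbol from the 35013 gene symbols of 2 deposited tables of normalized counts: Slc5a1, Slc2a2, Slc2a5 and Slc2a1, which encode the sugar transporters SGLT1, GLUT2, GLUT5 and GLUT1, the hexokinases Hk1 and Hk2, the ketohexokinase Khk, the glucose 6-phosphatase catalytic subunit G6pc and the regulatory protein gene Gckr. All 9 were listed in both tables. The mean normalized count over the 6 libraries of a table reached 10 for 8 of them in each table, and these 8 were tested. Gckr did not reach it.

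Bulk RNA-Seq of mRNA had been performed on epithelial cells sorted from the small intestine of NFKO mice aged 4 to 6 weeks, whose genotype is Neurog3Cre-FoxO1 f/f; Rosa26tdtomato. Neurog3 marks endocrine progenitors, so Cre acts in these progenitors, deletes FoxO1 there, and leaves Tomato in them and their descendants. The 3 populations were CD24negTomato+, CD24+Tomato+ and Tomatoneg cells, with 3 biological replicates of each and 9 libraries in all. Tomatoneg cells came from mice of the same genotype and carry the floxed alleles without having switched on the reporter, and no mice without Neurog3Cre were sequenced in these libraries, so a difference between Tomato+ and Tomatoneg cells sets a lineage and the loss of FoxO1 against the rest of the epithelium at once, and these cannot be told apart. CD24, the sorting antigen, is a surface protein found on Paneth, enteroendocrine and tuft cells and on crypt progenitors. Whether animals were pooled for a library is not given in the sources used here.

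In the absorptive enterocyte, SGLT1 carries glucose and galactose with sodium across the brush border, GLUT5 carries fructose, and GLUT2 lets all of these sugars leave towards the blood. GLUT1 is the transporter by which many cell types take up glucose for their own use. Hexokinases trap glucose as glucose 6-phosphate, G6pc reverses that step in liver, kidney and intestine, and Khk starts fructose breakdown. The comparisons ask which of these genes each sorted population used.

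The libraries held an estimated 19158348 to 24373149 reads in Tomatoneg cells, 29953097 to 37138914 in CD24negTomato+ and 27723742 to 39240059 in CD24+Tomato+ cells. A normalized count worth 3 reads, taken as the limit of detection, was 2.10 to 2.92 in the Tomato+ libraries, against 3.23 to 4.29 in Tomatoneg cells, for counting error only. Tomatoneg replicate 1 stood apart: the correlation of its log2 values across genes with the other Tomatoneg libraries was 0.82 to 0.86, against 0.92 to 0.93 between those, and 13025 genes were above 0 in it against 15644 and 16008. Results are therefore given with and without it where it mattered. A fit without 1 library kept the other libraries of that replicate number, so differences between replicate numbers enter its fold change. In limma, 134 genes of 13420 were higher and 43 lower in CD24negTomato+ than in Tomatoneg cells at an adjusted p under 0.05, and 1113 of 13874 were higher and 678 lower in CD24+Tomato+ cells. The CD24negTomato+ split was 98 higher and 60 lower with library totals set equal, and 184 and 92 after quantile normalization. The median log2 fold change over all genes tested was 0.08 and 0.16 in the comparisons, and equal library totals moved the CD24negTomato+ median to -0.12.

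The labels were checked on Foxo1 and Cd24a. Foxo1, the targeted gene, had normalized counts of 467, 274 and 371 in CD24negTomato+ replicates 1, 2 and 3 against 695, 518 and 424 in Tomatoneg cells, and of 319, 193 and 201 in CD24+Tomato+ against 748, 529 and 444. It was lower in 3 of 3 same-numbered pairs of either comparison, with a log2 fold change of -0.56 (SE 0.33, adjusted p = 0.427) and -1.27 (SE 0.36, adjusted p = 0.0579, and 0.0219 with the replicate number as a block). These counts cover the whole gene, so transcripts that lack only the deleted part would still be counted. Cd24a was at 25857 to 30949 in CD24+Tomato+ cells, at 3170 to 5914 in Tomatoneg cells of that table, and at 993 to 2054 in CD24negTomato+ cells against 2944 to 5782 in Tomatoneg cells of the other.

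Marker lists for intestinal cell types described what each sort held. Levels between genes are given as a length-scaled level: the normalized count divided by the length of the longest transcript of the gene and scaled to a sum of 1000000 in every library. Tomatoneg libraries had a summed level of 13592 to 48326 for 12 enterocyte markers, CD24negTomato+ libraries 15560 to 34043 and CD24+Tomato+ libraries 1594 to 7530. Replicate 1 was the highest for these in each population. Goblet markers, 8 mucus genes and regulators, summed to 8404 to 11756, 76054 to 134742 and 35599 to 60178 in the same order. Paneth markers were at 3811 to 16129, 2001 to 4749 and 50191 to 129048, and enteroendocrine markers at 474 to 1173, 6698 to 13279 and 17778 to 44208. The CD24negTomato+ sort thus held enterocyte transcripts in the range of Tomatoneg cells, beside goblet and enteroendocrine transcripts above that of Tomatoneg cells. Of its 12 enteroendocrine markers, 8 passed as higher in limma (where 0.999% of all genes were called higher), and 2 had lower values. The CD24+Tomato+ sort held Paneth, enteroendocrine and goblet transcripts with fewer enterocyte transcripts.

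No member passed the limma test in CD24negTomato+ against Tomatoneg cells, where 6 of the 8 tested had a higher value and 2 a lower value, and 2 were higher at an unadjusted p under 0.05 (Slc2a1 and Hk2). In CD24+Tomato+ cells, Hk2 rose and Khk, G6pc, Slc2a5 and Slc5a1 fell, 1 higher and 4 lower of 8. Over all genes tested, 0.999% were called higher and 0.32% lower in the first comparison, and 8.02% higher and 4.89% lower in the second. The replicate number was also fitted as a block, though the labels do not say whether same-numbered libraries share mice or a sort. With the block Hk2 and Slc2a1 passed as higher in CD24negTomato+ cells (2 of 8, where 4.34% of all genes were called higher and 2.96% lower). The block added Slc2a1 as higher and Slc2a2 as lower in CD24+Tomato+ cells, for 2 higher and 5 lower of 8, where 10.8% of all genes were called higher and 9.95% lower. There the blocked limma fit gave an adjusted p of 0.000198 for Slc5a1, 0.000249 for Khk, 0.00367 for Slc2a5, 0.0048 for G6pc and 0.00645 for Hk2. Without Tomatoneg replicate 1, Hk1 passed as higher in either comparison, for 1 of 8 in CD24negTomato+ and 6 of 8 in CD24+Tomato+ cells. Over all genes, 535 were then called higher and 381 lower of 13420 in the first comparison, and 1564 and 829 of 13874 in the second. The CD24+Tomato+ count fell to 0 without CD24+Tomato+ replicate 2, to 1 (Khk) without replicate 3 and to 3 without Tomatoneg replicate 3. Of all 13874 genes these fits called 107 higher and 30 lower, 237 and 96, and 940 and 454, in the same order. Without CD24+Tomato+ replicate 1 the count of members was 4, with Hk2 and Slc2a5 lost and Slc2a2 gained as lower. That fit called 338 of all genes higher and 323 lower. Both comparisons use the same Tomatoneg libraries, so they are not independent.

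**Figure D1:**
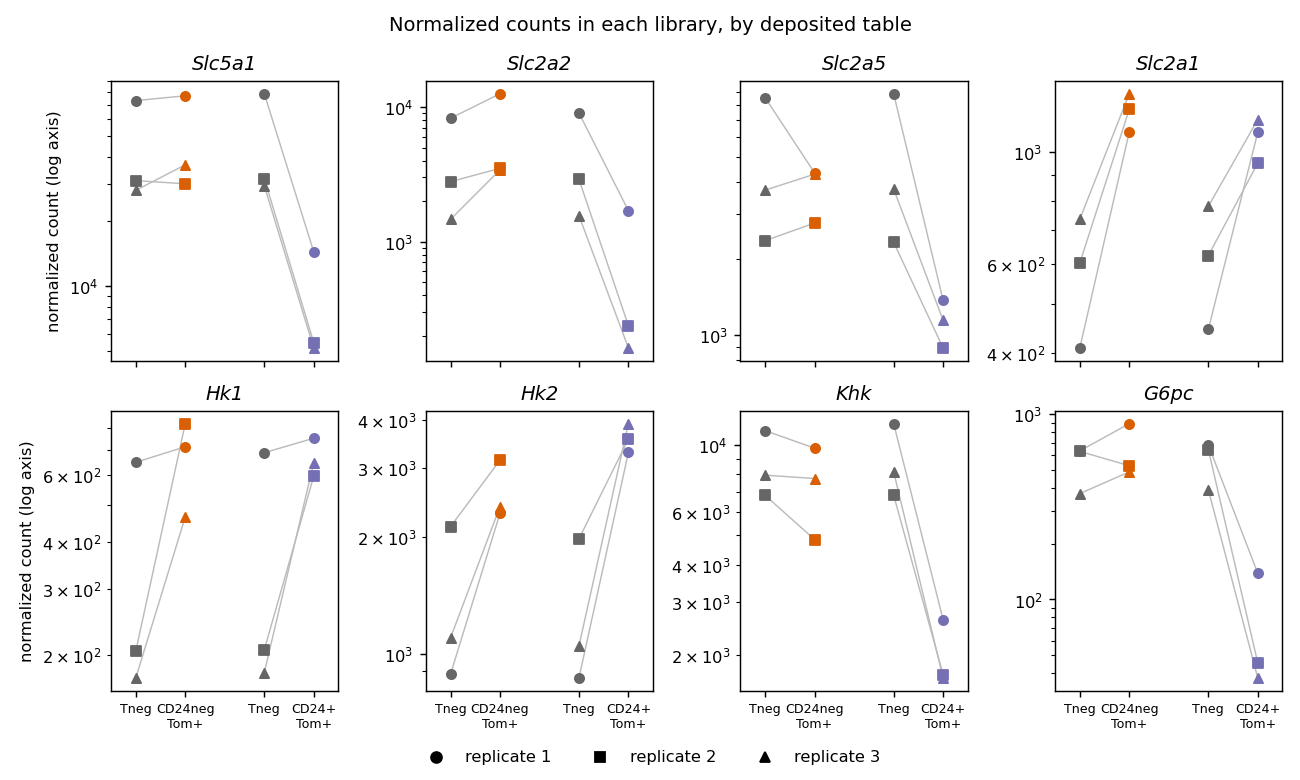
Normalized counts (log axes) of the 8 tested genes in each library, with the Tomatoneg libraries (Tneg) of each table at the left of the Tomato+ libraries (Tom+) they were compared with. Symbols mark replicate numbers and lines join same-numbered libraries. Slc5a1 lies between 27928 and 77083 in the 6 libraries of the CD24negTomato+ table, and between 5143 and 14430 in CD24+Tomato+ cells against 29284 to 78782 in Tomatoneg cells.

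In normalized counts, without overlap between the groups, Hk2 and Slc2a1 were higher in all 3 CD24negTomato+ libraries than in any Tomatoneg library (2 of 8, where 14.7% of all genes were higher and 10.6% lower without overlap). The same 2 genes were higher without overlap in CD24+Tomato+ cells, where Khk, G6pc, Slc2a5 and Slc5a1 were lower without overlap. In that comparison 21.6% of all genes were higher and 14.4% lower without overlap.

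Slc5a1 encodes SGLT1, the sodium-coupled entry step for luminal glucose, and lies at chr5:33104219-33162870 on the plus strand (GRCm38, 15 exons in its longest transcript). Its normalized counts were 77083, 29968 and 36728 in CD24negTomato+ replicates 1, 2 and 3, and 73183, 30998 and 27928 in Tomatoneg cells. The groups overlapped, replicate 1 was the highest of either, and the log2 fold change was 0.14 (SE 0.50, 95% interval -1.02 to 1.30, adjusted p = 0.909). The CD24+Tomato+ libraries had counts of 14430, 5445 and 5143, against 78782, 31698 and 29284 in Tomatoneg cells of that table. Every CD24+Tomato+ library lay below every Tomatoneg library, and Slc5a1 fell by 2.50 on the log2 scale (SE 0.53, adjusted p = 0.025), which is 5.66-fold lower. The differences within same-numbered pairs were -2.45, -2.54 and -2.51, and the call was lost without CD24+Tomato+ replicate 2 (log2 fold change -2.28) or 3 (-2.24). In bulk samples, fewer cells of a type and less RNA per cell cannot be told apart, here or for any gene below.

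For Slc5a1 and Slc2a2, whose normalized counts were lower in CD24+Tomato+ cells in every same-numbered pair, and for Hk2, whose normalized count was higher, the 250 bases before the RefSeq start (GRCm38.p6) are shown 5′ to 3′ on the strand of the gene. Khk, G6pc and Slc2a5 were also lower in every pair, and Hk1 and Slc2a1 also higher. The windows shown lie at chr5:33103969-33104218 (plus), chr3:28697653-28697902 (plus) and chr6:82774455-82774704 (minus). Capitals mark the letters ACTTTG, the reverse strand of the HNF4 core CAAAGT, which is the only match in these windows to the motifs listed after them.
Slc5a1: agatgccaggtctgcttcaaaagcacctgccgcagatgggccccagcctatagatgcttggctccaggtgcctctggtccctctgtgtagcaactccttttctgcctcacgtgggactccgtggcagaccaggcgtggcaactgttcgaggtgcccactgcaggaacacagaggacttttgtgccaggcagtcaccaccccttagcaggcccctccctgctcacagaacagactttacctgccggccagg
Slc2a2: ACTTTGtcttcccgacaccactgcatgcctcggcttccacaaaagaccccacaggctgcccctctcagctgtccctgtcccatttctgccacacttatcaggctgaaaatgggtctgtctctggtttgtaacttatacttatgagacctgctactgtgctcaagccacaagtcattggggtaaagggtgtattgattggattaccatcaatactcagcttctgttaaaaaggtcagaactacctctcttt
Hk2: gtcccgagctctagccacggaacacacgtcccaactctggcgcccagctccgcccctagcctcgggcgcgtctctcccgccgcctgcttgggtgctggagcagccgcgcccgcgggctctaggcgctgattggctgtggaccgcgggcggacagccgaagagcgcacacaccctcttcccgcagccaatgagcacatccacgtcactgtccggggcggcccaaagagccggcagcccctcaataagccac
The motifs described here, searched on both strands, were the FoxO core GTAAACA, the insulin response core CAAAACA, the CDX2 core TTTATG and the HNF4 core CAAAGT, and no 2 matches overlapped. Among 32851 promoter windows of this length, 3.17%, 5.56%, 10.8% and 12.6% held them in this order. G6pc had an insulin response core at -174 to -168 from its start and Gckr at -83 to -77. Hk1, Khk, Slc2a1 and Slc2a5 had no match to these in their windows. These are counts of letters in a window.

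Slc2a2, which encodes GLUT2 and lies at chr3:28697903-28731359 (plus, 11 exons), had the largest SE of the 8 tested members in either comparison without the block. Its normalized counts were 12561, 3505 and 3412 in CD24negTomato+ and 8249, 2788 and 1461 in Tomatoneg replicates 1, 2 and 3. Each Tomato+ library was above the Tomatoneg library of its number, but the groups overlapped and the log2 fold change of 0.72 (SE 0.72, 95% interval -0.94 to 2.38) did not pass (adjusted p = 0.640). With the block the SE was 0.20 and the 95% interval 0.24 to 1.20, and it did not pass either (adjusted p = 0.0829). The log2 fold change was 1.40 without Tomatoneg replicate 1, 0.10 without CD24negTomato+ replicate 1 and 0.15 without Tomatoneg replicate 3, and passed in none of these. In CD24+Tomato+ cells the counts were 1699, 237 and 162, against 9025, 2898 and 1557. All 3 pairs were lower, by 2.41 to 3.61 on the log2 scale, and replicate 1 of the CD24+Tomato+ cells lay above replicate 3 of the Tomatoneg cells. The log2 fold change was -3.09 (SE 0.96, adjusted p = 0.0789). The blocked fit gave an adjusted p of 0.000513. Slc2a2 also passed as lower without CD24+Tomato+ replicate 1 (-4.13), and it was -2.39 and did not pass without Tomatoneg replicate 1.

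Slc2a5, the fructose transporter gene at chr4:150119283-150144169 (plus, 14 exons), was at 4339, 2757 and 4289 in CD24negTomato+ and at 8558, 2351 and 3714 in Tomatoneg cells. The groups overlapped (log2 fold change -0.18, SE 0.46, 95% interval -1.25 to 0.89, adjusted p = 0.868), and without Tomatoneg replicate 1 the value was 0.33. Its CD24+Tomato+ counts were 1372, 891 and 1145 against 8878, 2317 and 3752. Slc2a5 fell by 1.93 on the log2 scale (SE 0.47, adjusted p = 0.0376), 3.80-fold lower, and the groups did not overlap. This call was lost with a pseudocount of 0.1 (-1.93), without CD24+Tomato+ replicate 1, 2 or 3 (-2.07, -1.76 and -1.94) and without Tomatoneg replicate 3 (-2.02).

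Slc2a1, which encodes GLUT1 and lies at chr4:119108711-119137983 (plus, 10 exons), had higher values in Tomato+ cells. Its counts were 1096, 1214 and 1304 in CD24negTomato+ against 410, 604 and 737 in Tomatoneg cells, with a log2 fold change of 1.08 (SE 0.28, adjusted p = 0.115, and 0.0374 with the block). They were 1094, 951 and 1159 in CD24+Tomato+ against 446, 624 and 781, with a log2 fold change of 0.82 (SE 0.27, adjusted p = 0.0965, and 0.0478 with the block). Neither difference passed without the block, and in either table all 3 Tomato+ libraries were above all 3 Tomatoneg libraries.

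The hexokinase gene Hk2, at chr6:82725025-82774454 (minus, 18 exons), encodes an isoenzyme that binds mitochondria and is raised in many growing cells. Its normalized counts were 3296, 3569 and 3911 in CD24+Tomato+ against 866, 1976 and 1047 in Tomatoneg cells. The groups did not overlap, and Hk2 rose 2.95-fold (95% interval 1.76 to 4.95, log2 fold change 1.56, SE 0.32, adjusted p = 0.0226). In CD24negTomato+ cells the counts were 2295, 3148 and 2389 against 884, 2123 and 1097. The replicates did not overlap, and the log2 fold change of 1.02 (SE 0.35) had an adjusted p of 0.198, and of 0.0397 with the block. The CD24+Tomato+ call was lost without CD24+Tomato+ replicate 1, 2 or 3 (log2 fold change 1.62, 1.56 and 1.50) and without Tomatoneg replicate 3 (1.45).

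Hk1, the hexokinase gene at chr10:62268855-62379908 (minus, 18 exons) used in most tissues, passed only in the fits without Tomatoneg replicate 1. It was at 714, 823 and 466 in CD24negTomato+ against 650, 206 and 174 in Tomatoneg cells, and at 753, 597 and 649 in CD24+Tomato+ against 689, 207 and 180. The log2 fold changes were 1.18 (SE 0.53, adjusted p = 0.309, and 0.116 with the block) and 1.16 (SE 0.52, adjusted p = 0.194, and 0.0732 with the block), and the Tomato+ library was higher in 3 of 3 pairs of either comparison. Without Tomatoneg replicate 1 they were 1.77 in both, with adjusted p = 0.0336 and 0.0069.

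Khk, at chr5:30921431-30931248 (plus, 8 exons), commits fructose to breakdown by phosphorylating it. Its counts were 2627, 1724 and 1682 in CD24+Tomato+ against 11772, 6809 and 8152 in Tomatoneg cells, and it fell by 2.14 on the log2 scale (SE 0.29, adjusted p = 0.0069), 4.41-fold lower with no overlap, a call lost without CD24+Tomato+ replicate 2 (-2.05, adjusted p = 0.0557). Relative to the enterocyte markers described below, Khk overlapped between the groups, with a log2 difference of 0.32. In CD24negTomato+ cells it was at 9754, 4848 and 7734 against 11159, 6795 and 7934. Those groups overlapped, and the log2 fold change was -0.24 (SE 0.32, 95% interval -0.99 to 0.51, adjusted p = 0.742, and 0.312 with the block). The differences within same-numbered pairs were -0.19, -0.49 and -0.04.

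G6pc, at chr11:101367561-101377903 (plus, 5 exons), encodes the enzyme that turns glucose 6-phosphate back into free glucose. It had counts of 139, 45.5 and 37.7 in CD24+Tomato+ against 683, 645 and 392 in Tomatoneg cells. It fell by 3.14 on the log2 scale (SE 0.58, adjusted p = 0.0165), 8.83-fold lower, without overlap, and the call was lost without CD24+Tomato+ replicate 2 (-2.92) or 3 (-2.79). In CD24negTomato+ cells the counts were 890, 528 and 488 against 634, 630 and 373, and the groups overlapped (log2 fold change 0.21, SE 0.36, 95% interval -0.62 to 1.03, adjusted p = 0.797).

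Gckr, at chr5:31297443-31327314 (plus, 17 exons), encodes a regulatory protein of sugar phosphorylation in the liver cell. It was at 0, 1.60 and 0 in CD24negTomato+ and at 0.887, 0.732 and 0 in CD24+Tomato+ libraries, all below the value of 3 reads. In Tomatoneg cells it was at 6.68, 1.20 and 0 in the CD24negTomato+ table and at 14.0, 2.40 and 0 in the other. The same libraries thus had 1.95 times the value in the second table beyond their scaling, so the level of Gckr in Tomatoneg cells depended on the table, and no fold change is given.

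**Figure D2:**
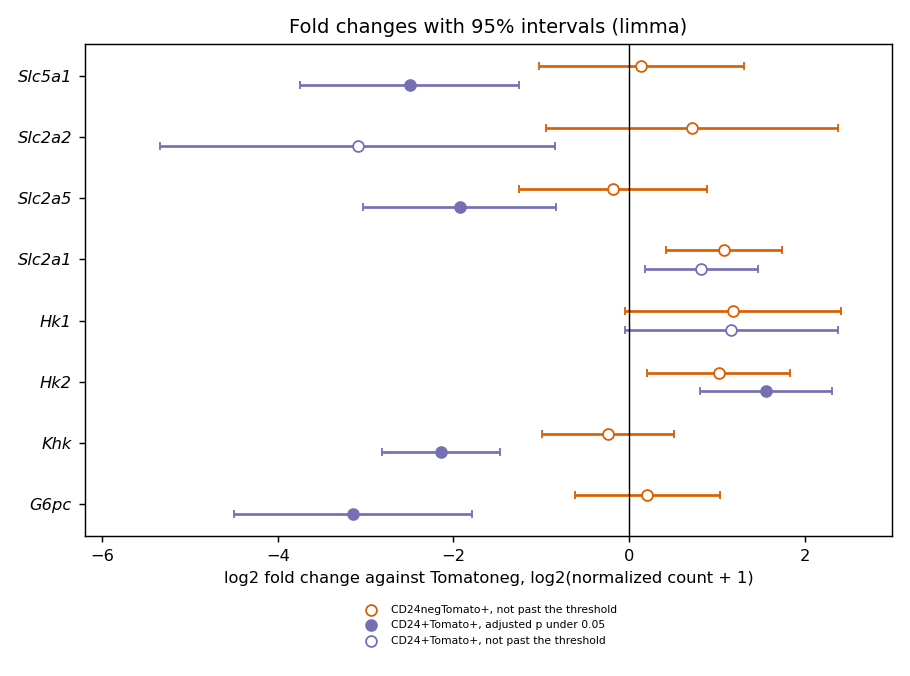
Log2 fold change (x axis) of the 8 tested genes (y axis) in each Tomato+ population against Tomatoneg cells, with 95% intervals from limma without the block. Filled points passed an adjusted p of 0.05. In CD24+Tomato+ cells Slc5a1, Slc2a5, Khk and G6pc are filled at the left of 0 and Hk2 at the right, and no CD24negTomato+ point is filled.

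Per length, Slc5a1 was the highest member and Khk the next in every population. Slc5a1 was at a length-scaled level of 438 to 1396 in Tomatoneg, 462 to 1195 in CD24negTomato+ and 54.1 to 258 in CD24+Tomato+ libraries, and Khk at 322 to 552, 194 to 392 and 45.4 to 122. In Tomatoneg cells Slc2a5 (56.1 to 212) and Slc2a2 (16.9 to 116) came next with overlapping ranges, and then Hk2, G6pc, Slc2a1 and Hk1, each overlapping its neighbour. CD24negTomato+ cells had Slc2a2 (32.1 to 143) and Slc2a5 (55.2 to 87.4) in the same place, again overlapping. The next member after Khk in CD24+Tomato+ cells was Hk2 (27.0 to 43.9), followed by Slc2a5 (11.8 to 31.9), Slc2a1 (12.2 to 24.6), Slc2a2 (1.26 to 22.4) and Hk1 (5.82 to 12.9) in overlapping ranges. G6pc (0.675 to 4.22) was below these genes within each library, though its range overlapped that of Slc2a2. These levels are set across tables, and the factor of a gene between the tables was 0.909 for Hk2 to 1.01 for Slc2a2.

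The highest gene of the hexokinase family was neither Hk1 nor Hk2 but Hkdc1, in Tomatoneg and CD24negTomato+ cells. Hkdc1 encodes a hexokinase family enzyme of gut epithelium. Hkdc1 held 90.3% ± 4.26 (SD, n = 3) of the summed length-scaled level of the 5 hexokinase genes in Tomatoneg cells, 78.8% ± 6.85 in CD24negTomato+ and 35.0% ± 8.33 in CD24+Tomato+ cells. Hk2 held 7.46% ± 4.81, 14.6% ± 4.61 and 37.5% ± 6.60 in the same order, and Hk1 2.01% ± 0.986, 4.77% ± 1.67 and 8.84% ± 0.145. Shares of Hkdc1, Hk2 and Hk1 in CD24+Tomato+ cells did not overlap those in Tomatoneg cells (exact two-sided permutation p = 0.1 each, the smallest that 3 against 3 allow). Between CD24negTomato+ and Tomatoneg cells the Hkdc1 and Hk1 shares did not overlap either (differences of -11.5 and 2.76 points, exact two-sided permutation p = 0.1 each), and the Hk2 share did (exact two-sided permutation p = 0.2). Tomatoneg shares are from the CD24negTomato+ table, and with the other table they moved by at most 0.976 points in this family.

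Hkdc1 fell in CD24+Tomato+ cells. Hkdc1 was at a length-scaled level of 65.4, 19.6 and 22.5 in CD24+Tomato+ and of 355, 195 and 186 in Tomatoneg replicates 1, 2 and 3, and in limma it fell by 2.49 on the log2 scale (SE 0.34, adjusted p = 0.0070). Slc2a2, Khk and G6pc are also liver genes. Hepatocyte markers were close to the limit of detection, and their summed level was 2.69 to 5.66 in the CD24+Tomato+ libraries, against 0.798 to 3.23 in Tomatoneg cells, with Serpina3k at 0 in CD24+Tomato+ cells, and 1 of the 3 markers tested, Hpx, was called higher (adjusted p = 0.025, and 0.0525 with the block). Acinar markers of the pancreas summed to 12.5 to 146 in the CD24+Tomato+ libraries, against 5.26 to 13.0 in Tomatoneg cells, none of 7 passed (4 higher at an unadjusted p under 0.05, and 2 higher with the block), and their part in the results for the members was not tested.

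**Figure D3:**
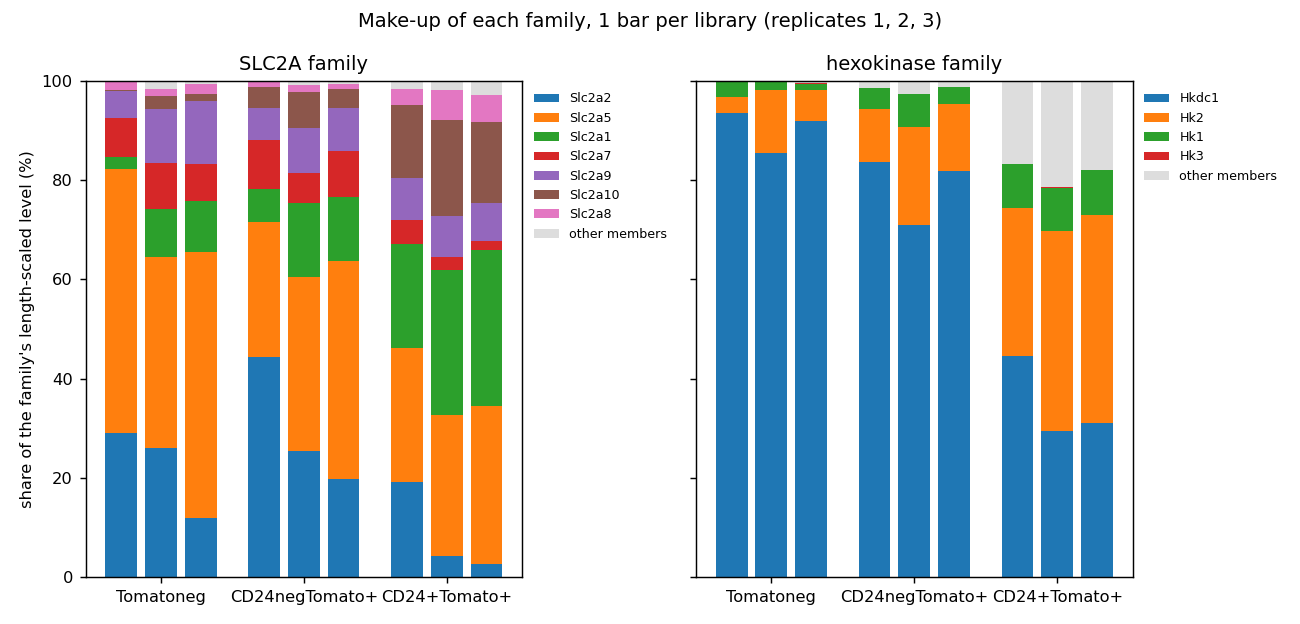
Share (%) of each gene in the summed length-scaled level of the SLC2A family (left) and of the hexokinase family (right), with 1 stacked bar for each of the 9 libraries, in the order of replicates 1, 2 and 3, and grey for the other genes of a family. Hkdc1 fills 85.5% to 93.6% of the hexokinase bars of Tomatoneg cells and 29.4% to 44.5% of those of CD24+Tomato+ cells.

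Among the 12 facilitative transporter genes of the SLC2A family, Slc2a5 and Slc2a2 led in Tomatoneg cells, with 48.4% ± 8.54 and 22.3% ± 9.13 (SD, n = 3) of the summed length-scaled level. In CD24negTomato+ cells they held 35.4% ± 8.43 and 29.9% ± 12.9, overlapping those values (exact two-sided permutation p = 0.2 and 0.6). Slc2a5 held 29.1% ± 2.52, Slc2a1 27.2% ± 5.50, Slc2a10 16.8% ± 2.35 and Slc2a2 8.63% ± 9.07 in CD24+Tomato+ cells. The Slc2a1 share was 7.45% ± 4.33 in Tomatoneg and 11.5% ± 4.36 in CD24negTomato+ cells, and it overlapped between these (exact two-sided permutation p = 0.4) but not between CD24+Tomato+ and Tomatoneg cells (exact two-sided permutation p = 0.1). Here too a share can be higher because other genes of the sum are lower. Slc2a2 in CD24+Tomato+ cells was at 19.1% in replicate 1 and at 4.27% and 2.57% in replicates 2 and 3, and overlapped its Tomatoneg share (exact two-sided permutation p = 0.2). The Tomatoneg shares of SLC2A genes moved by at most 1.79 points when taken from the CD24+Tomato+ table.

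In limma, 4 of the 9 SLC2A genes tested passed in CD24+Tomato+ cells, 1 higher and 3 lower. Slc2a10, the GLUT10 gene, rose (726 ± 98.4 against 112 ± 63.1 normalized counts, log2 fold change 2.88, SE 0.52, adjusted p = 0.0161). Slc2a7, a fructose and glucose transporter gene of the intestine, fell by 2.76 on the log2 scale (SE 0.64, adjusted p = 0.0323). Slc2a5 was the next by size, and Slc2a9, a urate transporter gene named here after its values were seen, fell by 1.55 (SE 0.30, adjusted p = 0.0188). In CD24negTomato+ cells 0 of 9 passed (before adjustment 2 were higher and 1 lower at p under 0.05), and with the block 2 were higher, Slc2a1 and Slc2a10.

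Slc5a1 led the sodium-coupled family in every population. It held 85.0% ± 2.29 of the summed length-scaled level of 7 SLC5A genes in CD24negTomato+, 83.8% ± 2.57 in CD24+Tomato+ and 85.4% ± 2.24 in Tomatoneg cells (SD, n = 3), with overlapping libraries (exact two-sided permutation p = 0.8 and 0.4 against Tomatoneg cells). Slc5a11, which encodes a myo-inositol transporter, fell with Slc5a1 in CD24+Tomato+ cells by 2.91 on the log2 scale (SE 0.69, adjusted p = 0.0353), and these were the 2 called of 5 tested (4 lower with the block). All 5 had values below Tomatoneg cells there. None of the 5 passed in CD24negTomato+ cells (1 higher at an unadjusted p under 0.05). How reads were divided between the related genes Slc5a4a and Slc5a4b was not examined.

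The downward members moved beside the enterocyte list. In CD24+Tomato+ cells 7 of 12 enterocyte markers passed as lower (12 of 12 with the block), with a median log2 fold change of -2.58, and 0 of 12 passed in CD24negTomato+ cells (2 higher at an unadjusted p under 0.05, and 3 higher with the block). Slc5a1 was 2.88% to 4.11% of the summed enterocyte level in Tomatoneg, 2.87% to 3.51% in CD24negTomato+ and 3.02% to 3.43% in CD24+Tomato+ libraries, with overlapping ranges. The mean ratio of Slc5a1 differed between CD24+Tomato+ and Tomatoneg cells by -0.04 on the log2 scale, where its mean level differed by -2.93. On the same scale the ratios of Khk, Slc2a5, Slc2a2 and G6pc to the list differed by 0.32, 0.54, -0.63 and -0.70, and all of these overlapped between the groups.

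Hk2, Hk1 and Slc2a1 had a higher mean level in CD24+Tomato+ than in Tomatoneg cells, by 1.13, 0.74 and 0.39 on the log2 scale, where the enterocyte sum was lower. On this length-scaled level, unlike the normalized count for Hk2 and Slc2a1, the groups overlapped. Hk2 was at 27.0 to 43.9 in CD24+Tomato+ against 12.6 to 29.0 in Tomatoneg libraries. Hk1 was at 5.82 to 12.9 against 2.62 to 11.9, and Slc2a1 at 12.2 to 24.6 against 9.84 to 14.5 (Tomatoneg levels from the CD24negTomato+ table). Relative to the summed enterocyte level, Hk2 was 0.583% to 1.92% in CD24+Tomato+ against 0.0236% to 0.190% in Tomatoneg libraries, and Hk1 was 0.172% to 0.411% against 0.0189% to 0.0257%. Slc2a1 was 0.327% to 0.963% against 0.0205% to 0.108%. These ratios did not overlap, and a gene that does not fall must rise relative to a sum that did. In CD24negTomato+ cells the ratios of Hk2 and Slc2a1 overlapped those of Tomatoneg cells, and those of Hk1 did not (0.0312% to 0.0755% against 0.0193% to 0.0262%). Paneth markers (6 of 7 higher), enteroendocrine markers (12 of 12 higher), goblet markers (8 of 8 higher) and tuft markers (7 of 8 higher) passed in the same comparison, and their part in the Hk2 result was not tested. Immune markers (6 of 8 lower) summed to 142 to 629 in the CD24+Tomato+ libraries, against 424 to 2153 in Tomatoneg cells, and their part was not tested either.

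**Figure D4:**
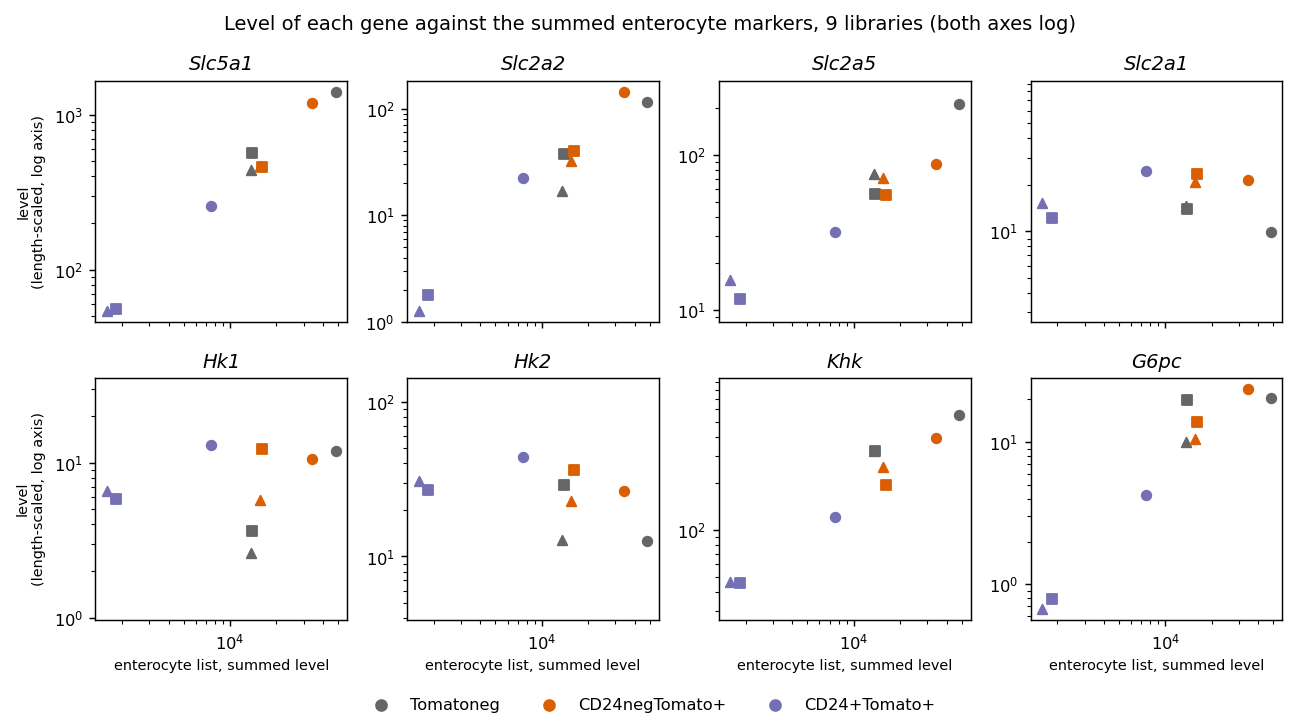
Length-scaled level of each gene (y axis) against the summed level of 12 enterocyte markers (x axis) in the 9 libraries, both axes log, with populations by colour and replicates 1, 2 and 3 as circles, squares and triangles. Slc5a1 lies along a line at 2.87% to 4.11% of the enterocyte sum in all 9 libraries, and Slc2a1, Hk1 and Hk2 each have their lowest level in a Tomatoneg library although the enterocyte sum is lowest in CD24+Tomato+ cells.

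The genes most like each member over the 9 libraries were taken by Pearson's r of log2(length-scaled level + 1) among 13007 genes. The libraries share populations, replicate numbers and the level of the enterocyte list, so r is a measure of likeness only. For Slc5a1 they were Npc1l1, the brush border cholesterol transporter gene (r = 0.999), Slc25a45 and Treh, the trehalase gene (both r over 0.998). For Slc2a2 they included Slc30a10 (0.998), for Khk they included Tkfc (0.997) and Ehbp1l1 (0.996), for G6pc Ttll2, Car13 and Mep1b (0.992 to 0.994), and for Slc2a5 P2ry2, Dnm1 and Sult2b1 (0.992 to 0.993). Slc5a1 had r = 0.982 with Slc2a2, 0.978 with Khk, 0.975 with G6pc and 0.954 with Slc2a5. Against this group of 5, Hk2 had r of -0.602 with Slc2a5 to -0.245 with Slc2a2, and its most similar genes were Gm49331 (0.971), Cdk17 (0.966) and Dnajc10 (0.965). Hk1 was most like Appl2 (0.986), Dap (0.962) and Rbm12b1 (0.956), and Slc2a1 most like Pqlc3 (0.949), Agfg2 (0.946) and Klhl28 (0.943).

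The members were also set among 12 lists of sugar genes, which hold the 8 tested members. In CD24negTomato+ cells 0 of 80 genes of these lists passed in limma, and before adjustment 5 were higher and 6 lower at p under 0.05. With the block, Tkt of the pentose phosphate pathway (log2 fold change -0.67, adjusted p = 0.0334) and the growth factor receptor gene Igf1r (-2.23, adjusted p = 0.0347) were lower and Slc2a10 was higher beside Hk2 and Slc2a1, and Tkt and Igf1r are named after their values were seen. Of the fructose route, Tkfc (triokinase, log2 fold change -2.24, SE 0.31, adjusted p = 0.0079) fell beside Khk in CD24+Tomato+ cells. Of the glucose 6-phosphatase system, G6pc and the glucose 6-phosphate carrier gene Slc37a4 (-1.01, SE 0.23, adjusted p = 0.0294) were lower, 2 of 3 tested, and the widely expressed G6pc3 was at 1293 ± 241 against 984 ± 421 normalized counts (adjusted p = 0.424).

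Of glycolysis below hexokinase, all 14 tested genes had values below Tomatoneg cells in CD24+Tomato+ cells and 3 passed (10 with the block), with a median log2 fold change of -0.98. These were Pfkp, a phosphofructokinase gene (-1.57, SE 0.24, adjusted p = 0.0096), Pklr, the liver-type pyruvate kinase gene (-1.12, SE 0.27, adjusted p = 0.0373), and Pgam1, a phosphoglycerate mutase gene (-1.07, SE 0.24, adjusted p = 0.0273). Pfkfb4, which sets fructose 2,6-bisphosphate, fell by 1.78 on the log2 scale (SE 0.24, adjusted p = 0.0068) and was the 1 call of 4 in its list. Of gluconeogenesis genes Pcx, pyruvate carboxylase, was 1 lower of 5 (-1.35, SE 0.30, adjusted p = 0.0278). Of disaccharidases Treh was 1 lower of 4 (-3.04, SE 0.67, adjusted p = 0.0278), and all 4 were lower with the block. Of galactose breakdown Galm, the aldose mutarotase gene, was 1 lower of 6 (-1.52, SE 0.26, adjusted p = 0.0126). None of 7 pentose phosphate genes passed (2 lower at an unadjusted p under 0.05, and 2 with the block), and none of 15 regulators such as Mlxipl, Hnf4a and Cdx2 passed (3 lower at an unadjusted p under 0.05, and 3 with the block). Their median log2 fold changes were -0.35 and -0.50.

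**Figure D5:**
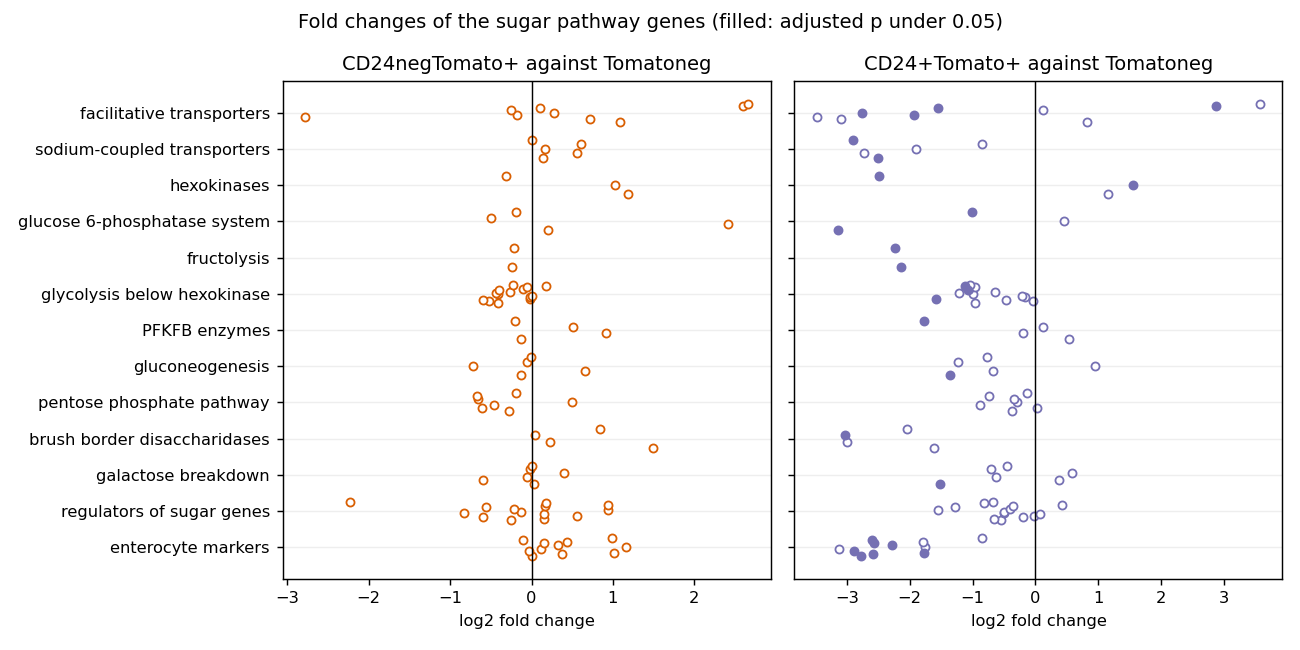
Log2 fold change (x axis) of the genes reported here from 12 sugar gene lists and of the enterocyte markers (y axis, 1 point per gene) in CD24negTomato+ (left) and CD24+Tomato+ cells (right) against Tomatoneg cells. Filled points passed an adjusted p of 0.05 in limma. The left panel has no filled point, and on the right Khk and Tkfc are filled at -2.14 and -2.24.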

How the data were processed

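Bulk RNA-Seq of poly-A mRNA (TruSeq chemistry, Illumina NovaSeq) was analysed in 3 sorted populations with 3 replicates each. Each deposited value is a signal, for which the authors estimated gene counts with kallisto 0.44.0 on GRCm38 and normalized them within each of 2 tables of 6 libraries with DESeq2 (bcl2fastq 2.19 and sleuth are also named in the labels). The Tomatoneg libraries are in both tables. Their values differ by a factor of the library (1.08, 1.02 and 1.05 in replicates 1, 2 and 3) times a factor of the gene, which is within 10% for 93.7% of 11359 genes, so tests were made only within a table. Depth was estimated by taking the most common low value of a library as 1 read.

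Members were the rows with their symbols. The members and lists were chosen with earlier results of these data known. Genes named are the members, Foxo1, Cd24a, the 3 largest changes past the threshold of each sugar list, the 3 genes most like each member, and markers of described lists. Some genes that these rules name are not reported here.

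Genes whose mean reached 10 were compared on the scale log2(normalized count + 1) by limma 3.58.1 (lmFit and trended eBayes, R 4.3.3), with p-values adjusted by Benjamini-Hochberg over all genes, at a threshold of 0.05, without a block. Intervals are 95%. In simulated data with 200 changed genes, changes of 2 on the log2 scale were recovered in 31.0% (CD24negTomato+ table) and 29.7% (CD24+Tomato+ table), changes of 4 in 69.0% and 70.6%, and 5.4% and 1.9% of calls were false. The simulated data had no differences between replicate numbers, and fewer changed genes than were called in CD24+Tomato+ cells. These rates therefore need not hold for the real libraries. Replicate numbers come from the labels. Deviations of same-numbered libraries correlated at 0.29 to 0.34 and 0.18 to 0.38, over 0.1 in every pair, so the number was used as a block. The labels do not say what same-numbered libraries share. Length-scaled levels used the longest transcript of GENCODE M21 (97.7% of symbols matched). Shares were compared by exact permutation. Promoters are from RefSeq (GRCm38.p6). Alternatives were other pseudocounts, filters and scalings, the block, libraries left out in turn, other lengths, and, added after seeing the data, the other table's values and levels relative to enterocyte markers. Python 3.11.15, numpy 2.4.6, pandas 2.3.3 and matplotlib 3.10.9 were used.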

Additional observations from a re-analysis of the deposited data

Results flagged for a closer look

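Slc2a2 had values of opposite sign in the Tomato+ populations, and neither passed in limma without the block (adjusted p = 0.640 and 0.0789). With the block the value in CD24+Tomato+ cells passed (adjusted p = 0.000513), and that in CD24negTomato+ cells did not (0.0829). Its log2 fold change against Tomatoneg cells was 0.72 in CD24negTomato+ cells, higher in 3 of 3 same-numbered pairs, and -3.09 in CD24+Tomato+ cells, lower in 3 of 3 pairs. Whether these fold changes differ was not tested, since they lie in tables normalized separately, and both rest on the same Tomatoneg libraries. The Slc2a2 share of the SLC2A family was 29.9% in CD24negTomato+ and 8.63% in CD24+Tomato+ cells. Its lowest value in the first was 19.8% and its highest in the second 19.1% (exact two-sided permutation p = 0.1, the smallest that 3 against 3 allow). Over the fits that left out 1 library, the log2 fold change ranged from 0.10 to 1.40 in CD24negTomato+ and from -4.13 to -2.39 in CD24+Tomato+ cells.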

How the results depend on the processing

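In CD24negTomato+ cells, 2 members passed with the replicate block in place of 0, and 0 to 1 when libraries were left out in turn. In CD24+Tomato+ cells, 0 to 6 members passed when libraries were left out in turn, in place of 5. The block added Slc2a1 and Slc2a2 there and changed no other call. With library totals set equal, the log2 fold change of Slc5a1 in CD24negTomato+ cells was -0.059. Leaving out libraries in turn gave -0.26 to 0.58 for Slc5a1, -0.063 to 0.37 for G6pc, -0.46 to 0.041 for Khk and -0.60 to 0.33 for Slc2a5 in CD24negTomato+ cells. The sign of each thus depended on the library left out. Khk was nevertheless lower in 3 of 3 same-numbered pairs there, and did not pass with the block (adjusted p = 0.312). Relative to the enterocyte markers, the log2 difference in CD24+Tomato+ cells was 0.32 for Khk and 0.54 for Slc2a5. Without division by length, the Slc2a2 share was 33.7%, 42.7% and 13.3% in Tomatoneg, CD24negTomato+ and CD24+Tomato+ cells, the Slc5a1 share 89.5%, 87.4% and 90.0% in CD24negTomato+, CD24+Tomato+ and Tomatoneg cells, and the Hk2 share 21.0% and 49.2% in CD24negTomato+ and CD24+Tomato+ cells. The mean differences in share within pairs equal the unpaired ones by arithmetic, 7.17 and 30.0 points for Hk2. Pairing could not change them, so they say nothing on how the shares depend on it. Over all genes, calls in CD24negTomato+ cells went from 134 higher and 43 lower to 582 and 397 with the block, 93 and 19 with a pseudocount of 0.1, and 314 and 101 with a pseudocount of 10, and from 8 and 1 to 535 and 381 with libraries left out. In CD24+Tomato+ cells they went from 1113 and 678 to 1504 and 1381 with the block, and from 107 and 30 to 1564 and 829 with libraries left out. Depth limits Gckr, which was under 3 reads in all Tomato+ libraries. The cause of these changes was not tested, beyond fewer samples where a library was left out.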
